A study of Homo sapiens with 4 samples.

Results

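The genes described here encode 47 factors of ribosome biogenesis and of the nucleolus, the nuclear body in which ribosomes are made. The members are the rows of the deposited NB4 table whose gene symbol stands on a list of 47 names, each of which matched exactly 1 of the 60662 rows, and all 47 were among the 15246 genes with enough counts to be tested. The list was drawn up by known function, with earlier results of these data known.

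RNA polymerase I transcribes the ribosomal DNA into a long precursor RNA within the nucleolus. Small nucleolar ribonucleoproteins (snoRNPs) then modify and help to fold this RNA. It is cleaved, and assembly factors and helicases help to build the small and the large ribosomal subunit around it. Growing cells, leukemic blasts included, devote much of their transcription to this pathway, and the transcription factor MYC is known to activate many of its genes.

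RNA was sequenced from NB4 cells, a human cell line of acute promyelocytic leukemia (subtype M3) that carries the PML-RARα fusion. One group was transduced with the empty control vector (Vector, 2 libraries) and the other with a vector expressing JMJD3 (2 libraries), the histone H3K27 demethylase encoded by KDM6B. The methods describe lentiviral vectors in which JMJD3 is linked to a fluorescent marker. The comparison asks which transcripts differ when JMJD3 is expressed from the vector. The deposited counts summed to 39078443 and 40768225 in Vector replicates 1 and 2 and to 35176388 and 34704909 in JMJD3 replicates 1 and 2. No source used here states separate cultures for the libraries within a group, so p-values measure only the spread between these libraries, which may be technical. Vector replicate 1 was labelled lane 20 and the other 3 libraries lane 17. Mitochondrial transcripts made up 7.91% and 7.65% of the counts in the Vector libraries and 5.73% and 5.86% in the JMJD3 libraries. Without mitochondrial genes, 34 of the 47 members were lower and 2 higher at an edgeR adjusted p under 0.05, as with them. Of all tested genes 2904 were lower and 3285 higher in that fit.

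Levels are given as CPM, counts scaled to the size of the library, with sizes adjusted by the TMM method. They are shares of a library, so that the amount of RNA per cell is not measured. KDM6B (ENSG00000132510) was at 15.8 and 13.7 CPM in the Vector libraries and 37.9 and 44.1 CPM in the JMJD3 libraries (log2 fold change 1.48, SE 0.13, edgeR adjusted p = 0.00114). Here and throughout, an edgeR adjusted p comes from its quasi-likelihood test with Benjamini-Hochberg adjustment over all tested genes. Both JMJD3 libraries lay above both Vector libraries, which checks the labels, although the counts hold transcripts of the vector and of the endogenous gene alike. MYC was at 1250.4 and 1255 CPM in the Vector libraries and 1025 and 1009.7 CPM in the JMJD3 libraries (log2 fold change -0.30, SE 0.07, edgeR adjusted p = 0.0131), with no overlap between the groups. MYC passed the threshold in 7 of 12 alternative settings.

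The markers chosen for the cell type matched a promyelocytic line in part. MPO, the myeloperoxidase of the primary granules, was the most abundant of 8 promyelocyte markers, at 13876 and 14109.9 CPM in the Vector libraries and 9379 and 9421 CPM in the JMJD3 libraries. The summed level of these markers was 16682 and 17493 against 10640.4 and 10589 CPM, and of the 7 tested 4 fell and 2 rose. CTSG, a granule protease, fell from 145 and 164 CPM to 10.96 and 9.61 CPM, whereas ELANE, the neutrophil elastase gene, was at most 0.351 CPM in every library and was not tested. The 2 that rose were CEBPE, a transcription factor of granulocyte maturation, at 71.2 and 87.8 CPM in the Vector libraries and 136 and 126 CPM in the JMJD3 libraries (log2 fold change 0.72, SE 0.12, edgeR adjusted p = 0.00515), and the surface receptor gene CD33, at 65.1 and 68.7 CPM in the Vector libraries and 83.5 and 79.7 CPM in the JMJD3 libraries (log2 fold change 0.29, SE 0.09, edgeR adjusted p = 0.038). CD33 passed in 4 of 12 alternative settings. The 4 erythroid markers HBB, HBA1, HBA2 and ALAS2 had 0 counts in every library, which allows up to 3 counts or between 0.0786 and 0.0810 CPM, a limit that covers counting error only.

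The 7 lymphoid markers summed to 14.1 and 16.8 against 28.6 and 27.0 CPM, with CD79A the most abundant in every library, MS4A1 at 0 and CD3D, CD3E and CD3G at or under 0.262 CPM. CD2 and CD79A were higher in the JMJD3 libraries, with log2 fold changes of 1.38 (SE 0.17, edgeR adjusted p = 0.0025) and 0.83 (SE 0.13, edgeR adjusted p = 0.00416). The 6 stromal and epithelial markers summed to 4.61 and 5.48 against 1.30 and 1.22 CPM, nearly all of it EPCAM, and COL1A2, COL3A1, KRT5 and CDH1 were at 0. The part of these marker differences in the results on the nucleolar genes was not tested.

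Most of the ribosome biogenesis genes were lower in the JMJD3 libraries. At an adjusted p under 0.05, 34 of the 47 members fell, against 19.1% of all tested genes, and 2 rose, against 21.6%. The falls were moderate. The median log2 fold change of the members was -0.41, beside 0.04 for all tested genes. In the same edgeR fit the log2 fold changes of those that fell ran from -0.27 for DDX10 to -0.96 for IMP3. Under 12 alternative settings DDX10 ran from -0.59 to -0.23 and GNL3 from -0.34 to -0.05. No member passed a change of 2-fold in either direction (0 of 47 by edgeR, and 0 at an unadjusted p under 0.05, by the DESeq2 Wald test and by limma), whereas 10.4% of all tested genes did. In 42 members both JMJD3 libraries lay below both Vector libraries, as for 34.8% of all tested genes, in 3 they lay above, as for 39.6%, and in 2, DDX21 and DDX18, the groups overlapped, as for 25.6%.

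The summed level of the 47 members was 14663 and 14341 against 11109.5 and 10954 CPM. Both JMJD3 libraries lay about equally far below both Vector libraries. NPM1 and NCL make up much of this sum, and without them it was 9066 and 9064 against 6862 and 6826 CPM. The count of members that fell depended on single libraries. It was 17 without JMJD3 replicate 1, 12 without JMJD3 replicate 2, 40 without Vector replicate 2 and 37 without Vector replicate 1, the last being the comparison within lane 17. Among all tested genes 1368, 1110, 3419 and 4212 fell in the same 4 fits, against 2906 with all libraries. Without JMJD3 replicate 1 and without JMJD3 replicate 2, the members that fell numbered 0 and 0 for RNA polymerase I transcription, 3 and 2 for the snoRNP proteins, 2 and 1 for the abundant nucleolar proteins, 3 and 3 for the small subunit and 9 and 6 for the large subunit. The count of members that rose was 1, 0, 2 and 3 in the order of these 4 fits, and 1 member passed 2-fold without JMJD3 replicate 1 and 2 without Vector replicate 1. Of the 36 members past the threshold, 8 stayed past it under each of 12 alternatives, namely DDX56, IMP3, IMP4, MRTO4, NOP2, NOP56, PES1 and RRP1, and all 36 kept their sign. The median log2 fold change of the members lay between -0.51 and -0.41 in the 4 fits with a library left out. On the log2(FPKM + 0.1) scale limma called 10 members and 1165 of all tested genes lower.

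**Figure D1:**
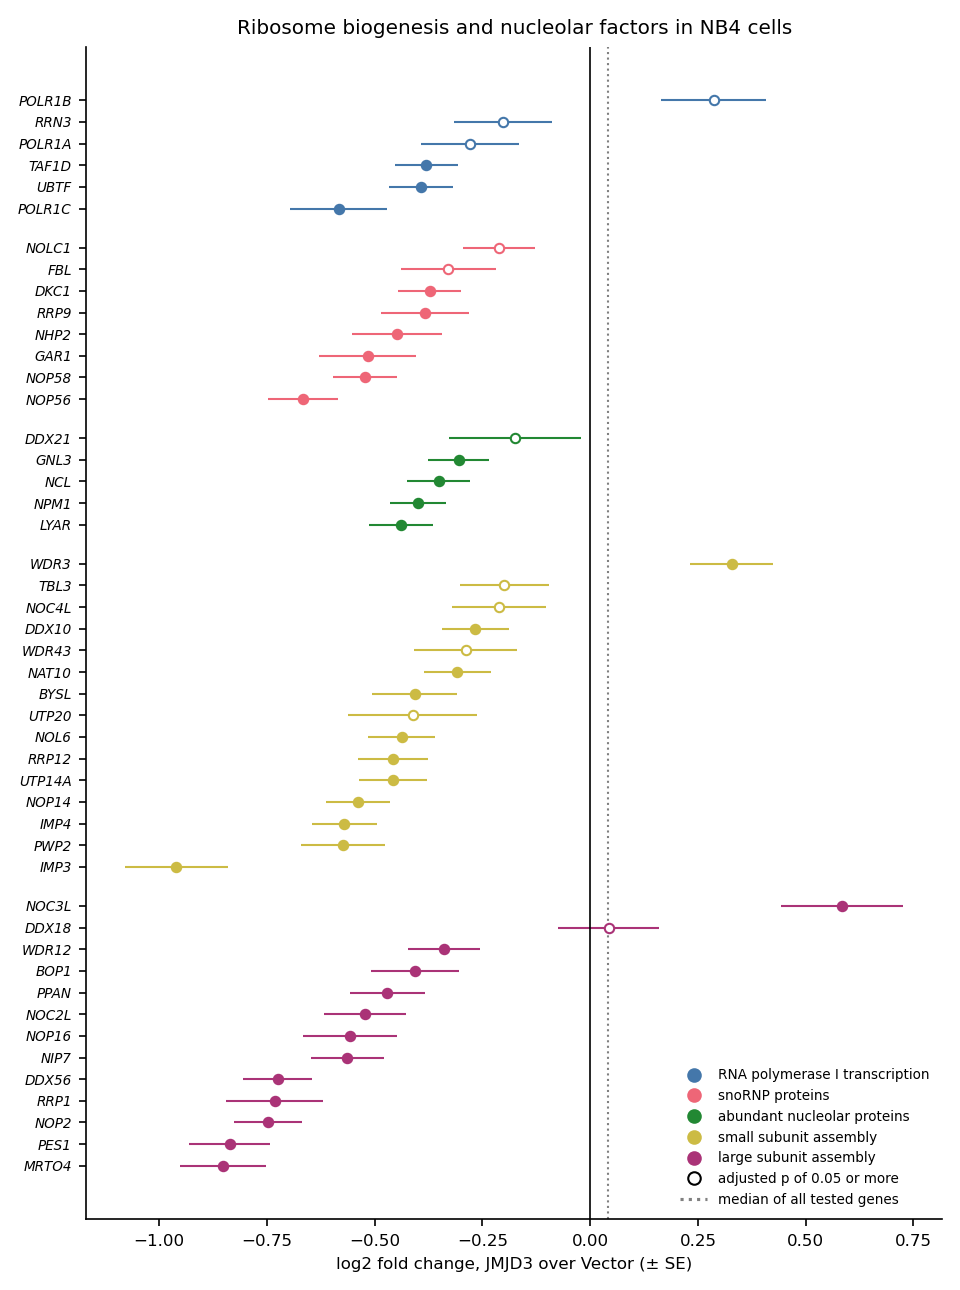
Log2 fold change of each member between JMJD3 and Vector libraries, with its standard error as a bar, by role. Filled points passed an adjusted p of 0.05 and open points did not; NOC3L and WDR3 are the filled points above 0, and the dotted line is the median of all tested genes.

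The plot of fold changes by role shows the members of every role mostly to the left of 0. The spread is widest among the factors of the large subunit, from -0.85 to 0.58, and narrowest among the abundant nucleolar proteins, from -0.44 to -0.17.

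Of the 6 members for RNA polymerase I transcription, 3 fell, and the median log2 fold change was -0.33. POLR1C, a subunit shared by RNA polymerases I and III, was at 49.3 and 58.3 CPM in the Vector libraries and 36.2 and 35.6 CPM in the JMJD3 libraries (log2 fold change -0.58, SE 0.11, edgeR adjusted p = 0.00884). UBTF, which binds the ribosomal DNA promoter and its transcribed region, was at 308 and 322 CPM in the Vector libraries and 234 and 245 CPM in the JMJD3 libraries (log2 fold change -0.39, SE 0.07, edgeR adjusted p = 0.00835). TAF1D, a subunit of the promoter selectivity factor SL1, was at 272 and 270.0 CPM in the Vector libraries and 212 and 204 CPM in the JMJD3 libraries (log2 fold change -0.38, SE 0.07, edgeR adjusted p = 0.00835). With limma, 3 of the 6 were lower and 1 higher on log2(FPKM + 1), and none passed on log2(FPKM + 0.1). In all 3 genes the JMJD3 libraries were both below the Vector libraries, and the libraries of a group lay close together for UBTF and TAF1D.

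The other 3 members of this role, which include the catalytic core of the polymerase, did not pass the threshold. POLR1A, the largest subunit, had 107 and 91.3 against 76.3 and 87.1 CPM (log2 fold change -0.28, SE 0.11, edgeR adjusted p = 0.0902). POLR1B, the second largest, had 73.6 and 60.2 against 77.3 and 85.8 CPM (log2 fold change 0.29, SE 0.12, edgeR adjusted p = 0.1), the sign opposite to that of the other 5. It was at 26.8 and 19.5 against 35.4 and 37.3 FPKM, and was the 1 called higher by limma on log2(FPKM + 1). Under 12 alternative settings its log2 fold change ran from 0.14 to 0.67. RRN3, the initiation factor that brings the polymerase to the promoter, had 94.6 and 77.3 against 74.9 and 74.6 CPM (log2 fold change -0.20, SE 0.11, edgeR adjusted p = 0.194). For all 3 the Vector libraries differed more from each other than they did for UBTF and TAF1D, with Vector replicate 1 the higher.

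Of the 8 snoRNP proteins 6 fell, with a median log2 fold change of -0.42. With limma, 3 of them were lower on log2(FPKM + 1) and 1 on log2(FPKM + 0.1). NOP56, a core protein of the box C/D particles that guide methylation of ribosomal RNA, was at 799 and 881 CPM in the Vector libraries and 547 and 512 CPM in the JMJD3 libraries (log2 fold change -0.67, SE 0.08, edgeR adjusted p = 0.00239). Its partner NOP58 was at 266 and 253 CPM in the Vector libraries and 179 and 181 CPM in the JMJD3 libraries (log2 fold change -0.52, SE 0.07, edgeR adjusted p = 0.00351). The JMJD3 libraries lay well below the Vector libraries in both genes. FBL, the methyltransferase of the same particles, had 242 and 294 against 223 and 204 CPM and missed the threshold (log2 fold change -0.33, SE 0.11, edgeR adjusted p = 0.0511), although its groups did not overlap.

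The H/ACA particles guide the conversion of uridine to pseudouridine, and all 3 of their core proteins among the members fell. GAR1 was at 52.0 and 58.7 CPM in the Vector libraries and 40.9 and 36.5 CPM in the JMJD3 libraries (log2 fold change -0.52, SE 0.11, edgeR adjusted p = 0.0128), and NHP2 at 148 and 177 CPM in the Vector libraries and 122 and 116 CPM in the JMJD3 libraries (log2 fold change -0.45, SE 0.10, edgeR adjusted p = 0.0163). DKC1, the pseudouridine synthase, had a log2 fold change of -0.37 (SE 0.07, edgeR adjusted p = 0.00947). RRP9, which belongs to the U3 particle, had one of -0.38 (SE 0.10, edgeR adjusted p = 0.0245). NOLC1, a chaperone of snoRNPs in the nucleolus and Cajal bodies, had 731 and 648 against 583 and 607 CPM and did not pass (log2 fold change -0.21, SE 0.08, edgeR adjusted p = 0.0821).

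Among the 5 abundant nucleolar proteins, 4 fell, with a median log2 fold change of -0.35. With limma, LYAR alone was lower on log2(FPKM + 1) and none on log2(FPKM + 0.1). NPM1, nucleophosmin, was at 2912 and 2826 CPM in the Vector libraries and 2213 and 2136 CPM in the JMJD3 libraries (log2 fold change -0.40, SE 0.07, edgeR adjusted p = 0.0053). NCL, nucleolin, was at 2686 and 2451 CPM in the Vector libraries and 2034 and 1992 CPM in the JMJD3 libraries (log2 fold change -0.35, SE 0.07, edgeR adjusted p = 0.0112). Neither gene had overlapping groups. By limma on log2(FPKM + 1) their log2 fold changes were -0.25 (adjusted p = 0.12) and -0.22 (adjusted p = 0.199). LYAR had 204 and 208 against 154 and 149.8 CPM (log2 fold change -0.44, SE 0.07, edgeR adjusted p = 0.00585), and GNL3, nucleostemin, 335 and 324 against 267 and 266 CPM (log2 fold change -0.31, SE 0.07, edgeR adjusted p = 0.0162). On the FPKM scale the groups of GNL3 overlapped, at 270.0 and 236 against 241 and 245 FPKM (log2 fold change -0.05, limma adjusted p = 0.735). NPM1 has processed pseudogenes with near-identical sequence, so that its estimated counts carry an added uncertainty.

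DDX21, an RNA helicase, stood apart from the other 4. It had 832 and 592 against 606 and 655 CPM (log2 fold change -0.17, SE 0.15, edgeR adjusted p = 0.388), so that Vector replicate 2 was the lowest of the 4 libraries and Vector replicate 1 the highest. Without Vector replicate 1 its log2 fold change was 0.05, with the opposite sign, and without Vector replicate 2 it was -0.40 (edgeR adjusted p = 0.0102).

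In the assembly of the small subunit, 10 of 15 members fell and 1 rose, with a median log2 fold change of -0.41. With limma on log2(FPKM + 0.1), 3 were lower. IMP3, a protein bound to the U3 particle, had the largest fall of all 47 members in its own counts, at 60.1 and 71.6 CPM in the Vector libraries and 35.3 and 32.5 CPM in the JMJD3 libraries (log2 fold change -0.96, SE 0.12, edgeR adjusted p = 0.00243). The JMJD3 libraries were at 51.4% of the Vector mean. IMP4, its partner in the same complex, was at 172 and 176 CPM in the Vector libraries and 118 and 116 CPM in the JMJD3 libraries (log2 fold change -0.57, SE 0.08, edgeR adjusted p = 0.00285). PWP2, a component of the UTP-B complex, was at 37.3 and 38.6 CPM in the Vector libraries and 26.0 and 25.003 CPM in the JMJD3 libraries (log2 fold change -0.57, SE 0.10, edgeR adjusted p = 0.00594). NOP14 was at 272 and 285 CPM in the Vector libraries and 194 and 189.7 CPM in the JMJD3 libraries (log2 fold change -0.54, SE 0.07, edgeR adjusted p = 0.00309). In these 4 genes the libraries of each group lay closer to each other than to any library of the other group.

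The other 6 members of this role that fell were UTP14A, RRP12, NOL6, BYSL, NAT10 and DDX10, with log2 fold changes from -0.46 to -0.27. NAT10, an acetyltransferase that modifies ribosomal RNA, had a log2 fold change of -0.31 (SE 0.08, edgeR adjusted p = 0.0209). WDR3, a component of UTP-B like PWP2, rose, at 86.7 and 75.8 CPM in the Vector libraries and 101 and 103 CPM in the JMJD3 libraries (log2 fold change 0.33, SE 0.10, edgeR adjusted p = 0.0336). Its JMJD3 libraries were both above its Vector libraries. Under 12 alternative settings the log2 fold change of WDR3 ran from 0.23 to 0.76. UTP20, WDR43, NOC4L and TBL3 did not pass, with log2 fold changes of -0.41, -0.29, -0.21 and -0.20 and edgeR adjusted p of 0.0652, 0.094, 0.163 and 0.164.

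The factors of the large subunit had the lowest median of the 5 roles, -0.56, with 11 of 13 members lower and 1 higher, against 6 lower with limma on log2(FPKM + 0.1). MRTO4, a factor related to the ribosomal stalk protein P0, was at 166 and 193 CPM in the Vector libraries and 102 and 97.0 CPM in the JMJD3 libraries (log2 fold change -0.85, SE 0.10, edgeR adjusted p = 0.00215). PES1 was at 194 and 223 CPM in the Vector libraries and 119 and 114 CPM in the JMJD3 libraries (log2 fold change -0.84, SE 0.09, edgeR adjusted p = 0.00199). The mean of the JMJD3 libraries was 55.4% of the Vector mean for MRTO4 and 56.0% for PES1. NOP2, a methyltransferase of the large ribosomal RNA, was at 262 and 283 CPM in the Vector libraries and 165 and 160.4 CPM in the JMJD3 libraries (log2 fold change -0.75, SE 0.08, edgeR adjusted p = 0.00179). RRP1 was at 128 and 156 CPM in the Vector libraries and 88.8 and 82.2 CPM in the JMJD3 libraries (log2 fold change -0.73, SE 0.11, edgeR adjusted p = 0.00437). DDX56, an RNA helicase, had nearly the same change, a log2 fold change of -0.72 (SE 0.08, edgeR adjusted p = 0.00196). RRP1 has a paralog, RRP1B, with which reads may be divided.

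PES1, BOP1 and WDR12 form the PeBoW complex, and all 3 fell. In this order they passed the threshold in 12, 7 and 6 of 12 alternative settings. Their changes were unequal in size, -0.84 for PES1, -0.41 (SE 0.10, edgeR adjusted p = 0.0206) for BOP1 and -0.34 (SE 0.08, edgeR adjusted p = 0.0198) for WDR12, and whether they differ from each other was not tested. NIP7, NOP16, NOC2L and PPAN fell too, with log2 fold changes from -0.56 to -0.47.

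NOC3L was the member with the largest rise, at 48.7 and 37.1 CPM in the Vector libraries and 61.7 and 66.9 CPM in the JMJD3 libraries (log2 fold change 0.58, SE 0.14, edgeR adjusted p = 0.0187). It had its lowest level in Vector replicate 2 and no overlap between the groups. Under the 12 alternatives NOC3L passed the threshold in 9 and WDR3 in 6, higher in all of them. NOC2L, with which it is known to form a complex, had 258 and 301 against 199 and 191 CPM (log2 fold change -0.52, SE 0.10, edgeR adjusted p = 0.00727), so that these partners moved in opposite directions. DDX18, an RNA helicase, had 170.4 and 136 against 154 and 161 CPM (log2 fold change 0.04, SE 0.12, edgeR adjusted p = 0.789). Both of its JMJD3 libraries lay between the Vector libraries. By limma on log2(FPKM + 1) the log2 fold change of DDX18 was 0.38 (adjusted p = 0.239).

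**Figure D2:**
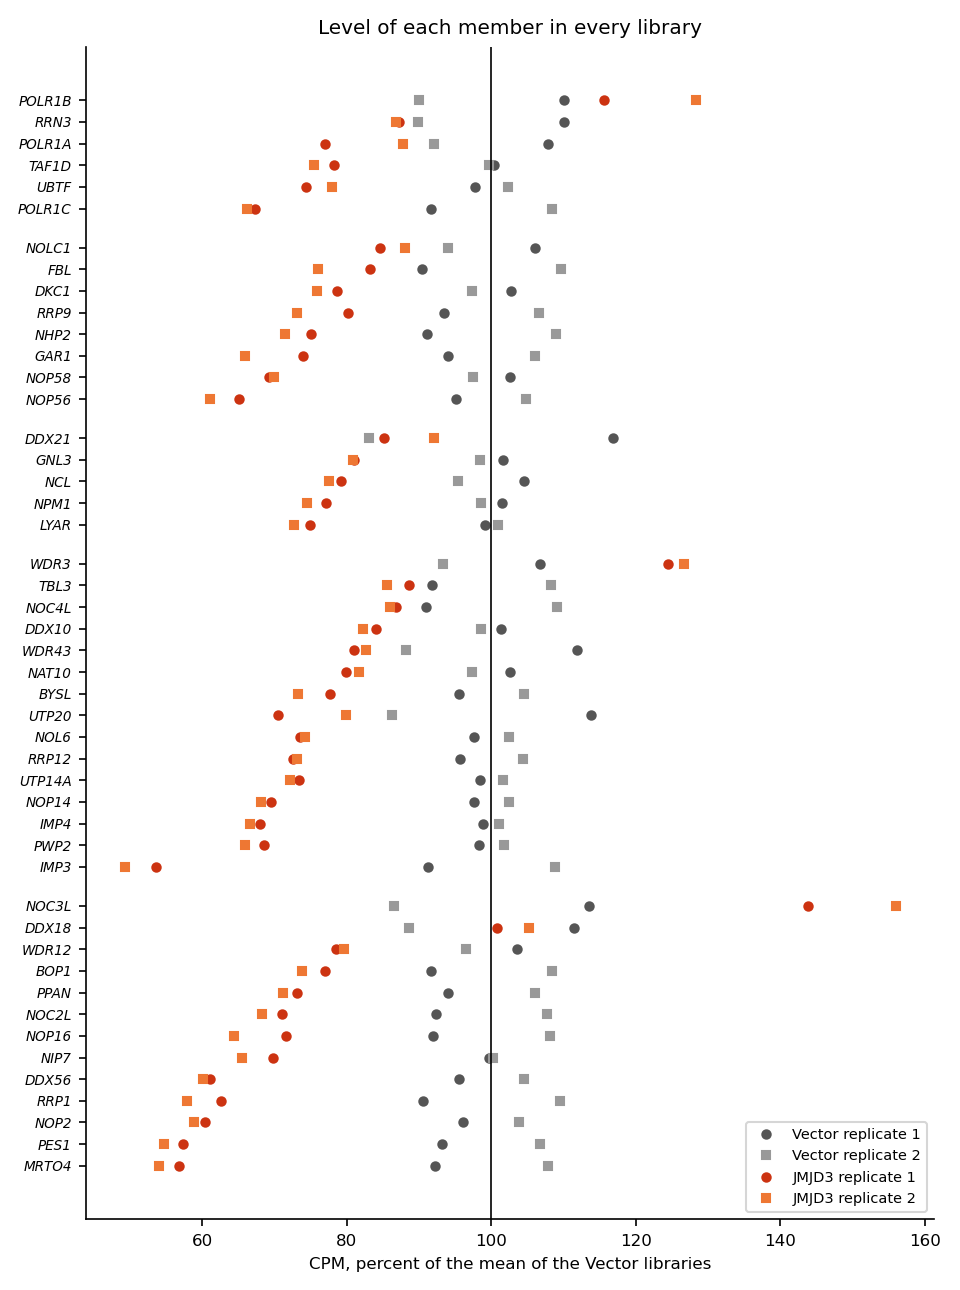
CPM of each member in the 4 libraries, as a percent of the mean of the Vector libraries, in the order of the plot of fold changes. The JMJD3 libraries lie to the left of both Vector libraries in 42 members, to the right in POLR1B, WDR3 and NOC3L, and among them in DDX21 and DDX18.

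The plot of levels by library shows that the JMJD3 libraries lay close together for most members, while the gap between the Vector libraries varied. The median absolute log2 ratio between the Vector libraries was 0.12 for the 34 members that fell and 0.29 for the 11 that did not pass the threshold. The call itself depends on this gap through the standard error, so the contrast is a description only. A wide gap between replicates raises the standard error, as for DDX21 (SE 0.15) and UTP20 (SE 0.15).

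The direction of this gap ran with transcript length. Over the 46 members with a length in GENCODE, the log2 ratio of Vector replicate 2 to replicate 1 had a Spearman correlation of -0.61 with the length of the longest transcript, and over 14991 tested genes one of -0.39. The log2 fold change between JMJD3 and Vector libraries had a correlation of 0.46 with length over the members and 0.13 over the tested genes. These are descriptions across genes, which share the 4 libraries and are not independent replicates. With the length trend of each library removed and the median gene held in place, 37 of 46 members were lower and 3 higher, with 3339 of all tested genes lower and 3867 higher. The same fit had first been run without holding the median gene in place, which gave 42 lower and 1 higher (4539 and 2943 of all tested genes) while the median of all tested genes moved by -0.12, and the part of transcript length in single changes was not tested further.

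Levels of different genes were compared per length, as FPKM. NPM1 was the most abundant member, at 2723 and 2991 FPKM in the Vector libraries and 2358 and 2425 FPKM in the JMJD3 libraries, followed by NCL at 1425 and 1231 FPKM in the Vector libraries and 1139 and 1138 FPKM in the JMJD3 libraries and NOP56 at 796 and 901 FPKM in the Vector libraries and 484 and 447 FPKM in the JMJD3 libraries. The neighbours in this order did not overlap in any library. The lowest in every library were UTP20 at 7.80 and 5.97 FPKM in the Vector libraries and 4.85 and 5.37 FPKM in the JMJD3 libraries and POLR1A at 9.57 and 7.79 FPKM in the Vector libraries and 7.20 and 9.39 FPKM in the JMJD3 libraries. UTP20 and POLR1A overlapped, since Vector replicate 1 of UTP20 lay above Vector replicate 2 and JMJD3 replicate 1 of POLR1A. The mean FPKM of NPM1 was 437 times that of UTP20. The level did not order the changes, with a Spearman correlation of -0.17 between mean FPKM and log2 fold change over the 47 members. On the FPKM scale 43 members had a lower mean in the JMJD3 libraries, the exceptions being NOC3L, WDR3, POLR1B and DDX18.

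Several members share exon bases with other genes, and the library kit named in the labels does not mark the strand, so that reads of overlapping genes cannot be told apart where they share bases. PPAN shares 47.6% of its exon bases with the readthrough gene PPAN-P2RY11, which was at 44.1 and 54.5 CPM against 19.3 and 17.1 CPM. The neighbouring P2RY11, a purinergic receptor gene, was at 48.1 and 58.7 against 8.88 and 8.53 CPM. Summed over these 3 genes, the log2 fold change at PPAN was -0.77 (edgeR adjusted p = 0.00231), against -0.47 for PPAN alone. P2RY11 itself shares only 1.66% of the exon bases of PPAN, and the sum without it gave -0.59 (edgeR adjusted p = 0.0042). PWP2 shares 46.6% with CH507-9B2.5, and their sum gave -0.54 (edgeR adjusted p = 0.00411). IMP3 shares 20.3% with CTD-2026K11.4 on the opposite strand, and their sum gave -0.88 (edgeR adjusted p = 0.00215). IMP3 also shares 31.7% with SNX33, which moved the other way, at 18.3 and 18.2 against 25.8 and 26.3 CPM. With both of these genes added, the log2 fold change at IMP3 was -0.62 (edgeR adjusted p = 0.00419), a smaller fall than that of MRTO4 or PES1. The same sum over every gene that shares at least 10% of a member's exon bases gave -0.38 (edgeR adjusted p = 0.0112) at NIP7 and -0.36 (edgeR adjusted p = 0.0265) at NHP2, against -0.56 and -0.45 alone.

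Of 122 further genes in 5 lists, all tested, 60 fell and 4 rose at an adjusted p under 0.05, and the median log2 fold change was -0.26. The count that fell was 38 with limma on log2(FPKM + 1) and 19 with limma on log2(FPKM + 0.1). With the DESeq2 Wald test it was 62. The count that rose was 4, 1 and 3, and among all tested genes 1919, 1165 and 2819 fell in the same fits. The count of the 122 that fell was smaller without either JMJD3 library and larger without either Vector library, as among all tested genes. Their median log2 fold change was -0.32 without Vector replicate 1 and -0.29 without Vector replicate 2. It was -0.26 without JMJD3 replicate 1 and -0.27 without JMJD3 replicate 2. With each library left out in turn, the median of the other RNA polymerase I factors ran from -0.08 to 0.02. That of the other snoRNP proteins ran from -0.28 to -0.23 and that of the small subunit from -0.325 to -0.26. For the large subunit it ran from -0.36 to -0.31, and for the exosome and exonucleases from -0.44 to -0.30. Whether the share differs from that of the members was not tested. The summed level of the 122 genes was 13902 and 14159 against 11336 and 11183 CPM.

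**Figure D3:**
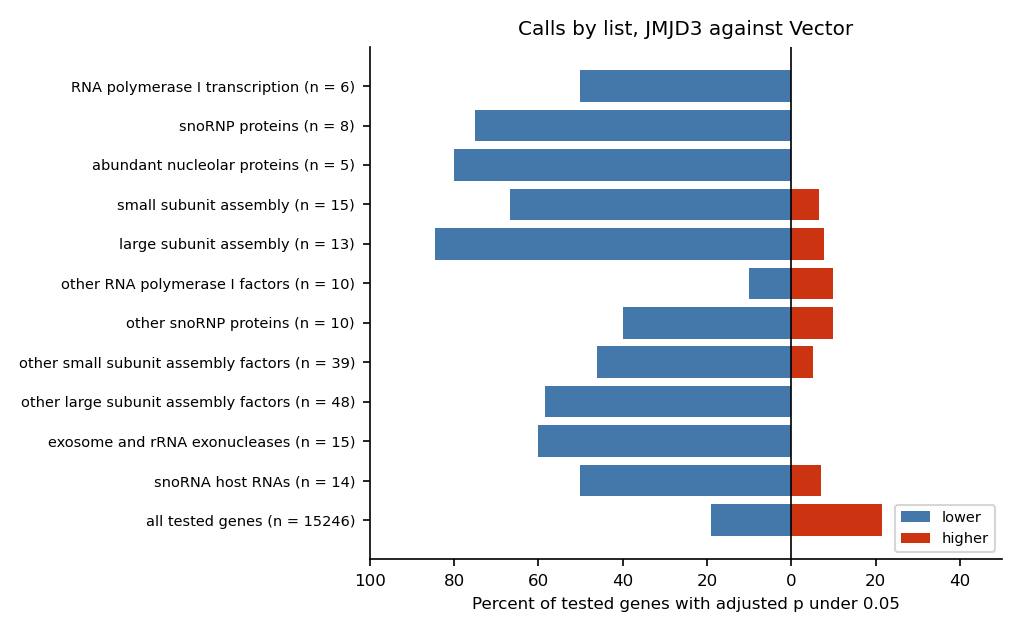
Percent of the tested genes of each list that were lower (left of 0) or higher (right of 0) in the JMJD3 libraries at an adjusted p under 0.05, with the number tested. The bar for all 15246 tested genes reaches 19.1% on the left and 21.6% on the right.

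The plot of calls by list has its shortest bar to the left for the other RNA polymerase I factors. Of these 10, 1 fell and 1 rose, with a median log2 fold change of -0.01. TCOF1, the nucleolar protein treacle, had 265 and 284 against 193 and 192 CPM (log2 fold change -0.51, SE 0.08, edgeR adjusted p = 0.00398), whereas TAF1A, an SL1 subunit like TAF1D, had 6.502 and 5.95 against 9.59 and 11.42 CPM (log2 fold change 0.75, SE 0.14, edgeR adjusted p = 0.00778). The JMJD3 libraries lay below the Vector libraries for TCOF1 and above them for TAF1A.

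Of the 10 other snoRNP proteins 4 fell and 1 rose (median -0.23). NOP10, the H/ACA core protein not among the members, had 100.1 and 116 against 76.8 and 64.1 CPM (log2 fold change -0.62, SE 0.12, edgeR adjusted p = 0.00936). SNU13, which binds the box C/D RNA, had a log2 fold change of -0.50 (SE 0.09, edgeR adjusted p = 0.00737) and ZNHIT3 one of -0.38 (SE 0.12, edgeR adjusted p = 0.0385), which passed in 4 of 12 alternative settings. ZNHIT6, an assembly factor of box C/D particles, rose by 0.53 (SE 0.11, edgeR adjusted p = 0.0103).

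Of the 39 other small subunit factors 18 fell and 2 rose (median -0.26). RCL1 had 59.2 and 63.0 against 33.9 and 35.6 CPM (log2 fold change -0.81, SE 0.10, edgeR adjusted p = 0.00221), and RRP36 and EMG1 had log2 fold changes of -0.78 (SE 0.11, edgeR adjusted p = 0.0032) and -0.77 (SE 0.10, edgeR adjusted p = 0.00256). UTP25, listed in the table under its older symbol DIEXF, rose by 0.47 (SE 0.10, edgeR adjusted p = 0.0114) and WDR75 by 0.27 (SE 0.09, edgeR adjusted p = 0.0451), the latter past the threshold in 4 of 12 alternative settings.

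Of the 48 other large subunit factors 28 fell, with a median log2 fold change of -0.31. NOL9, a polynucleotide kinase of ribosomal RNA processing, had 32.3 and 32.7 against 16.7 and 15.7 CPM (log2 fold change -1.005, SE 0.10, edgeR adjusted p = 0.00152). It was the 1 gene of the wider lists past 2-fold in the edgeR fit of all libraries. On the FPKM scale the JMJD3 mean was 51.3% of the Vector mean for NOL9, 40.0% for EMG1 and 38.4% for MDN1. In CPM it was 49.8% for NOL9, 58.5% for EMG1 and 69.3% for MDN1. The edgeR log2 fold change of MDN1 was -0.53 (SE 0.13, edgeR adjusted p = 0.0216). Vector replicate 1 of MDN1 lay above Vector replicate 2 in CPM and below it in FPKM. The helicase gene DDX51 had a log2 fold change of -0.91 (SE 0.08, edgeR adjusted p = 0.00127), and WDR18 one of -0.81 (SE 0.12, edgeR adjusted p = 0.004). Of the 15 genes of the exosome and of ribosomal RNA exonucleases 9 fell (median -0.37). EXOSC6, a subunit of the exosome ring, EXOSC10, a nuclear exonuclease, and EXOSC9 had log2 fold changes of -0.61, -0.58 and -0.51 (edgeR adjusted p = 0.00424, 0.00272 and 0.00545).

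Many snoRNAs are made from introns of protein genes or of noncoding host RNAs. Of all 47 members 72.3% fell, against 19.1% of all tested genes. Among the 46 members in GENCODE, 9 hold snoRNA genes, and 8 of these 9, all but WDR43, fell. The 31 snoRNA genes within them were not measured by these libraries, since 29 had 0 counts in every library and none had more than 1 count in a library. Of 14 noncoding snoRNA host RNAs, 7 fell and 1 rose (median -0.31). The count that fell was 5 with limma on log2(FPKM + 1), 2 on log2(FPKM + 0.1) and 7 with the DESeq2 Wald test. It was smaller without either JMJD3 library and not smaller without either Vector library. With each library left out in turn, the median of the 14 ran from -0.44 to -0.23. EPB41L4A-AS1 had 34.5 and 37.1 against 19.1 and 18.2 CPM (log2 fold change -0.94, SE 0.10, edgeR adjusted p = 0.00191), and SNHG5 and SNHG3 had log2 fold changes of -0.72 (SE 0.13, edgeR adjusted p = 0.00673) and -0.59 (SE 0.08, edgeR adjusted p = 0.00299). SNHG29, listed under the older symbol LRRC75A-AS1, rose by 0.29 (SE 0.09, edgeR adjusted p = 0.0409), and passed in 3 of 12 alternative settings.

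Promoters were read for the members, whatever their change, as RefSeq windows from 250 bases before to 50 bases after the start site on GRCh38.p14. Of the 47 members 42 were matched, with 52 windows, and NOP58, NOLC1, RRP12, BOP1 and DDX18 were not. The E-box CACGTG, the core sequence that MYC and other factors bind, is its own reverse complement, and was found in 19 of the 52 windows (36.5%), against 7.26% of 35116 windows of all genes and 8.34% of 22198 windows of protein-coding genes. GCCATNTT, the core of the YY1 motif, was found on either strand in 7 of the 52 windows (13.5%). Its share was 6.58% of all windows and 7.37% of those of protein-coding genes. The NRF1 motif, also its own reverse complement, was found in only 2 of the 52 windows (3.85%). Its share was 1.24% of all windows and 1.5% of those of protein-coding genes. A match is a description of the letters and not a measured binding site.

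Stretches of 100 bases from 70 before to 30 after the start are shown for 6 members that fell and for NOC3L, which rose, with the E-box in capitals. They lie at chr1:19251735-19251834 (MRTO4, forward strand), chr22:30591881-30591980 (PES1, reverse), chr4:2963377-2963476 (NOP14, reverse), chr2:130342827-130342926 (IMP4, forward), chr21:44107329-44107428 (PWP2, forward), chr4:4289992-4290091 (LYAR, reverse) and chr10:94362910-94363009 (NOC3L, reverse), and each is written 5′ to 3′ along its gene.
MRTO4: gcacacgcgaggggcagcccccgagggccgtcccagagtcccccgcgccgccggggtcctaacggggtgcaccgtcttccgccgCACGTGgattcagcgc
PES1: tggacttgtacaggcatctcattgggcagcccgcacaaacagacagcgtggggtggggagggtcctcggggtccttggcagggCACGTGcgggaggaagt
NOP14: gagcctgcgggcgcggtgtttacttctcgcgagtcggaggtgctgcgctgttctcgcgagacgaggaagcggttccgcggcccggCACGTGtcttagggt
IMP4: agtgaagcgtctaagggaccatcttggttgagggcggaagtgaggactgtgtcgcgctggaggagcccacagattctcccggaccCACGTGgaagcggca
PWP2: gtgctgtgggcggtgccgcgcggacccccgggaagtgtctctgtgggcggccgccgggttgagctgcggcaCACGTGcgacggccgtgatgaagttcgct
LYAR: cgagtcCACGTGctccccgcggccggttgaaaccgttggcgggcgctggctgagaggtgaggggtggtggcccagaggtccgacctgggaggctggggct
NOC3L: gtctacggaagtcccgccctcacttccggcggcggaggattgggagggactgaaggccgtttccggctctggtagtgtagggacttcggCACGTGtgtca
These 7 genes were chosen after their values were seen. Of the 19 members with an E-box in the window 14 fell, NOC3L rose, and FBL, DDX21, UTP20 and WDR43 did not pass. Of the 23 without one 17 fell, among them IMP3, DDX56, RRP1 and NOP56, WDR3 rose and 5 did not pass.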

How the data were processed

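For each gene and library of NB4 cells the authors deposited an estimated count, which need not be whole (98.4% of the nonzero values differ from a whole number by more than 1e-06), and an FPKM value, the count scaled to transcript length and library size. The submitters' processing notes name CASAVA 1.8, TopHat2 2.0.4, RSEM and edgeR, while the paper's methods name STAR, HTSeq-count and DESeq2, and which of them made the values is not given in the sources used here. The table also holds the authors' own fold changes, p-values and means, which were not used.

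Estimated counts were rounded to whole numbers, filtered with filterByExpr (15246 of 60662 genes), scaled by TMM and tested in 1 fit of all 4 libraries by the quasi-likelihood functions of edgeR 4.0.16 in R 4.3.3, with Benjamini-Hochberg adjustment over all tested genes. The standard error is the size of the log2 fold change divided by the square root of F. Members and lists were chosen with earlier results of these data known. One cell type marker of the design is not reported here. Genes named were all members, with values in every library for up to 4 per role and direction, and up to 3 per wider list and direction. NOC2L was added as the partner of NOC3L, and MDN1 for its change on the FPKM scale. Lengths and overlaps came from GENCODE and promoters from RefSeq. The test was also run on simulated counts (dispersion 0.01), and the outcome of that run is not reported here. Alternatives were other scalings, other filters, limma 3.58.1 on log2 FPKM with a pseudocount of 1 or 0.1, the DESeq2 1.42.0 Wald test, a replicate block and leaving out each library.

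Chosen after seeing the data were fits without mitochondrial genes, with crossed replicate numbers, with overlapping genes summed (first with chosen genes and, after those sums were seen, with every gene that shares at least 10% of a member's exon bases), and with length or length and GC trends removed by offsets. The trend fits were first run without centring the offsets. After that result was seen, they were run again with the offsets centred on the median gene, and both versions are given.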

Additional observations from a re-analysis of the deposited data

How the results depend on the processing

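All 36 members past the threshold kept their sign under 12 alternatives (other scalings, tests, filters, the replicate block and leaving out each library), and 8 of them (DDX56, IMP3, IMP4, MRTO4, NOP2, NOP56, PES1 and RRP1) stayed past it in each. With limma on log2(FPKM + 1), 1950 tested genes were higher, 1919 lower and 451 past 2-fold, with 2 members higher, 25 lower and a median of -0.45. With limma on log2(FPKM + 0.1), 1573 were higher and 1165 lower, with 0 members higher, 10 lower and a median of -0.455. With no filter on low counts, 1893 genes were higher and 1776 lower, with 0 members higher and 28 lower. Upper quartile scaling gave a median of -0.37. The causes were not tested.

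Leaving out each library in turn, where a lone library is assumed to vary like the others, gave 0 to 3 members higher, 12 to 40 lower and 0 to 2 past 2-fold, a median from -0.51 to -0.41, and 1890 to 4248 tested genes higher, 1110 to 4212 lower and 1315 to 1922 past 2-fold. Fewer libraries entered each of these fits. The log2 fold change of DDX21 ran from -0.40 to 0.0486 and that of DDX18 from -0.12 to 0.17.

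The replicate numbers only name the libraries. With the replicate block, 1 member was higher and 31 lower (3267 and 2415 of all tested genes). Deviations of the libraries numbered 1 had a correlation of -0.146, and with crossed numbers 3 members were higher and 39 lower (4335 and 3772 of all tested genes).

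Removing the length trend without centring moved the median of all tested genes by -0.12, gave 1 member higher, 42 lower and 1 past 2-fold with a median of -0.53, and called 2943 genes higher and 4539 lower (39.3% of calls higher, against 53.1% in the main result). With length and GC, the shift was -0.12, again with 1 member higher, 42 lower and 1 past 2-fold, a median of -0.54 and 4883 genes lower (39.6% of calls higher). These shifts come from the offsets, and the members' median relative to that of all tested genes was -0.46 and -0.47, against -0.45. Centring on the median gene, chosen after those values were seen, gave 37 and 40 members lower, 3 higher in both, and medians of -0.42 and -0.43, with 3339 and 3818 of all tested genes lower and 3867 and 4055 higher. DDX18 changed sign in all 4 of these fits, to -0.13 and -0.14 before centring and -0.00976 and -0.0367 after it. Its cause was not tested.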
